A study of Mus musculus with 2 samples.

Results

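Dendritic epidermal gamma-delta T cells were examined among CD45+ cells of mouse skin, in skin challenged with DPCP at day 2 and in control skin at day 0. DPCP (diphenylcyclopropenone) is a hapten applied to skin to elicit contact hypersensitivity. Members had no fewer than 200 genes and no more than 10% mitochondrial UMIs. Each held at least 1 UMI of the V segments Trdv4 or Tcrg-V5, at least 1 UMI of Trdc, at least 2 UMIs of Cd3e, Cd3d and Cd3g together, no UMI of Foxp3 and fewer than 20 UMIs of S100a8 and S100a9. The rule found 296 of 14146 barcodes, 140 of 7866 from DPCP skin and 156 of 6280 from control skin. Genes of the rule are described without a comparison, since they chose the cells. Full-thickness skin was digested with Liberase TM, CD45+ cells were sorted, and cells of the 2 conditions carried different lipid-linked tags and were loaded as 1 pool. Strain, age and the number of mice behind each tag are not given in the sources used here. Each condition is 1 tagged sample, so no test between conditions was possible, and the 95% intervals below cover counting error alone.

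These cells are the resident T cells of mouse epidermis. They leave the fetal thymus as an early wave, carry a nearly invariant receptor built from Tcrg-V5 and Trdv4, sit between keratinocytes with long dendrites, and are held there in part by the integrin CD103, the product of Itgae, which binds E-cadherin. They sense stressed keratinocytes through the receptor and through NKG2D (Klrk1), and are known in mouse skin for a role in wound repair, for killing of transformed cells, and for cytokine release in contact hypersensitivity. Trdv4 is also used by dermal gamma-delta T cells that carry Tcrg-V6, so the rule can admit some of those cells.

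The tags are shown because each cell's condition rests on them alone. Both are designed sequences read 5′ to 3′, with no part set in capitals.
CMO309 (DPCP, day 2): gttgatctataacag
CMO311 (control, day 0): gaatcgtgattcttc
Of the UMIs of both tags in the members, 76.0% came from the cells' own tag in DPCP skin and 96.6% in control skin. A limit of at least 80% own tag left 38 DPCP and 156 control members. Whether some of the DPCP members came from control skin was not tested beyond that limit, and every value of DPCP against control rests on these tags. No barcode sequence was shared by both conditions.

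Nearly all members had been admitted by the delta-chain segment. Trdv4 had a UMI in 137 of 140 DPCP and 149 of 156 control members, and Tcrg-V5 in 22 and 38. Both segments were seen in 19 DPCP and 31 control members. Tcrg-V6 had a UMI in 7 and 10 members. The 10 markers of dermal type 17 gamma-delta T cells summed to 136 CPM in DPCP and 29.1 CPM in control members, over 24 and 25 cells, with Tcrg-V4 and Il17a at 0 in DPCP and Il17a, Il17f and Sox13 at 0 in control. In macrophages with C1q genes, which should lack these genes, a V-segment UMI was seen in 4 of 256 DPCP and 7 of 611 control cells at median depths of 11148 and 11039 UMIs, against median depths of 7990.5 and 8752 UMIs in the members. Trdc had a UMI in 17 of 256 (6.64%) and 37 of 611 (6.06%) of those macrophages. V-segment and Trdc UMIs together occurred in 1 of 256 and 0 of 611 of those macrophages, where 0 allows a share of up to 0.491%.

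Genes outside the rule set the members apart. In control skin the 15 genes with the highest ratio to all other kept cells were C030029H02Rik, Rimbp2, Zmat4, Chl1, Enox1, Fermt2, Fgd5, Bend7, Kcnma1, Arhgef28, Olfm3, Fam174b, Scn8a, Ctla2a and Slc4a4, at 145-fold to 81.3-fold. They include the ion channel genes Kcnma1 (potassium) and Scn8a (sodium), the bicarbonate transporter gene Slc4a4 and the protease inhibitor gene Ctla2a. Ctla2a stood at 1579.5 CPM in DPCP members against 76.2 CPM in the other DPCP cells, and at 2712 CPM in control members against 31.9 CPM in the other control cells. CPM here are a gene's UMIs scaled to all UMIs of the summed cells. At least 3 of the 15 genes had a UMI in 135 of 140 DPCP and 153 of 156 control members, in 6 of 50 and 4 of 74 alpha-beta T cells, and in 1 of 256 and 1 of 611 C1q macrophages. The 15 genes had been picked on control members against all other kept control cells, both these cell types included. The control counts therefore follow from the choice and are a description only. DPCP cells had no part in that choice, though they come from the same pool. At least 3 of the 15 were also held by gamma-delta T cells with no V-segment UMI, in 35 of 45 DPCP and 33 of 53 control cells.

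Members made up a smaller share of all kept cells in DPCP skin, 140 of 7588 (1.85%, Clopper-Pearson interval 1.55 to 2.17), than in control skin, 156 of 4970 (3.14%, 2.67 to 3.66). Neutrophil RNA fills the DPCP sample, where 5004 of 7588 kept cells held 20 or more UMIs of S100a8 and S100a9, against 147 of 4970 in control. Among kept cells with fewer than 20 UMIs of S100a8 and S100a9 the order turned round, with 140 of 2584 in DPCP (5.42%, 4.58 to 6.36) and 156 of 4823 in control (3.23%, 2.75 to 3.77). With at least 80% own tag required of the members and of the cells they are counted in, DPCP was again lower, at 38 of 1640 (2.32%) against 3.23% in control. Among the cells low in S100 UMIs with at least 2 Cd3 UMIs, members were 140 of 324 in DPCP (43.2%, 37.7 to 48.8) and 156 of 398 in control (39.2%, 34.4 to 44.2), with intervals that overlap. After every cell was thinned to 2000 UMIs, the rule found 49 of 2204 DPCP cells (2.22%, 1.65 to 2.93) and 84 of 4529 control cells (1.85%, 1.48 to 2.29). Shares of 1 pool depend on the sort and on what else was sorted. The S100 limit set aside 65 of 205 DPCP barcodes that met every other condition and 1 of 157 in control. Values lay close to the limits in some members: 46 of 140 DPCP and 44 of 156 control members held a single V-segment UMI, 11 and 1 held 2 or 3 Cd3 UMIs, and 8 and 2 held 15 to 19 S100 UMIs, while 4 and 1 barcodes just outside held 20 to 24.

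RNA of other cell types was present in the members and differed between the conditions. The 11 macrophage and monocyte markers, all detected in both conditions, summed to 3618 CPM in DPCP members and 8684 CPM in control members, with a range over cells of 230 to 17953 and of 0 to 35820 CPM. More than 5000 CPM of that list was found in 22 of 140 DPCP (15.7%) and 51 of 156 control members (32.7%), a limit set after seeing the data. These cells had median depths of 16477.5 and 17249 UMIs, against 7329 and 6685 UMIs in the remaining 118 and 105 members, and held 28.4% of the members' UMIs in DPCP and 51.2% in control. They are called myeloid-rich below, and values without them are given beside the results they move most. The 8 Langerhans cell and MHC class II markers summed to 4093 CPM in DPCP and 8475 CPM in control members. The 10 neutrophil markers, rule genes among them, summed to 1110 CPM in DPCP and 723 CPM in control members. Of these, S100a8 stood at 295 and 216 CPM, a description only, since the rule limits it. Keratinocyte markers were near 0, at 27.6 CPM in DPCP and 6.28 CPM in control members, with Krt15, Krtdap and Perp at 0 in both. The part of this RNA in the differences below was not tested beyond leaving the myeloid-rich cells out.

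**Figure D1:**
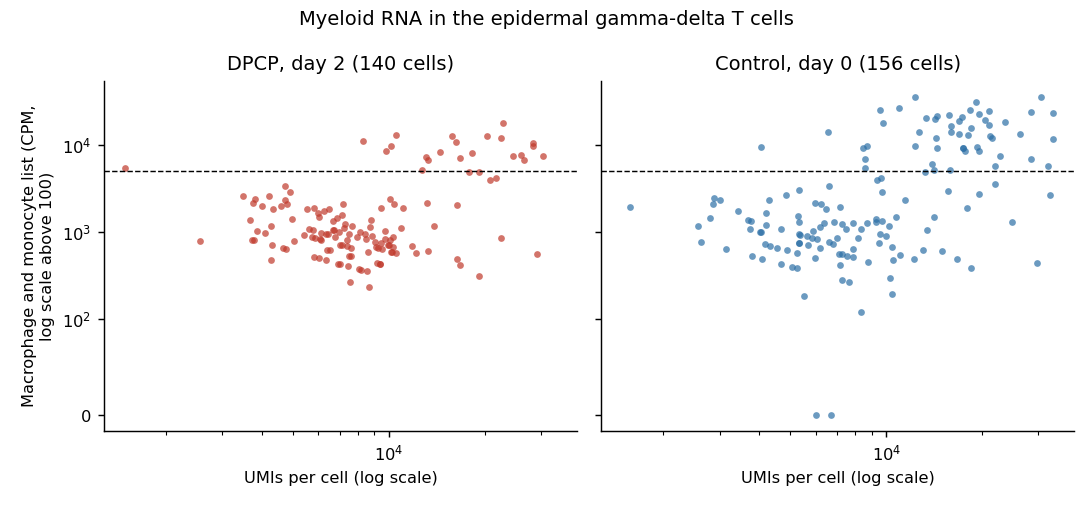
Each point is 1 member. The x axis gives its UMIs (log scale), the y axis its summed level of the macrophage and monocyte list in CPM, and the dashed line marks 5000 CPM. In DPCP skin 22 of 140 members lie above the line and in control skin 51 of 156, most of them to the right, at high UMI counts.

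Of 7921 genes with at least 50 summed UMIs in the members, 326 (4.12%) were at least 2-fold higher in DPCP members and 236 (2.98%) at least 2-fold lower, and 12.7% and 8.19% passed 1.5-fold. Among the 118 DPCP and 105 control members that were not myeloid-rich, 6276 genes had enough UMIs, with 4.76% higher and 2.98% lower by 2-fold, and 13.5% and 9.94% by 1.5-fold. These shares are the background for each list. The median log2 ratio over all genes was 0.08, and 0.06 without the myeloid-rich cells. Of the genes measured both ways, 204 of 242 higher calls and 92 of 130 lower calls were also made without those cells, where they were 204 of 299 and 92 of 187 calls.

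Genes of the T cell receptor complex and its signalling outside the rule stayed within 2-fold among all members. Cd3e stood at 979 CPM in DPCP and 1396 CPM in control members, Cd3g at 1438 and 2083 CPM, and Trdc at 926 and 1216 CPM, which chose the cells and are a description only. Of 14 other receptor and signalling genes measured, none passed 2-fold in either direction and 2 were past 1.5-fold lower, with a median log2 ratio of -0.07. Without the myeloid-rich cells 1 of 14 was lower by 2-fold and 4 by 1.5-fold, and the median was -0.36. Cd247, the zeta chain, was at 1112 CPM in DPCP and 1656 CPM in control members (ratio 0.67, interval 0.63 to 0.71). Tcrg-C1, a gamma-chain constant region, was at 426 and 693 CPM (0.62, 0.56 to 0.68), and at 448 and 1008 CPM (0.44) without the myeloid-rich cells. Among members with both V segments the ratio was 0.73 for Cd247 and 1.01 (0.83 to 1.22) for Tcrg-C1. Fcer1g, an adaptor that can take the place of the zeta chain, was at 1508 and 1352 CPM (1.12, 1.05 to 1.18).

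The identity list of these cells did not move one way: of its 16 genes 2 were higher and 1 lower by 2-fold (median log2 ratio 0.07), and 2 and 3 without the myeloid-rich cells (median -0.26). Itgae stood at 383 CPM in DPCP and 532 CPM in control members (0.72, 0.65 to 0.80), and at 455 and 774 CPM (0.59) without the myeloid-rich cells. Among the 19 DPCP and 31 control members with both V segments, Itgae was level, at 457 CPM in each condition. Thy1, a surface glycoprotein that marks these cells in mouse epidermis, was at 408 and 581 CPM (0.70, 0.63 to 0.78). Klrk1, which encodes NKG2D, was at 265 and 347 CPM (0.77, 0.67 to 0.87). None of these 3 passed 1.5-fold among all members. Kit, the receptor for stem cell factor, had the highest ratio of the identity list, at 138 CPM in DPCP and 25.7 CPM in control members (5.38, 3.87 to 7.62). After thinning, Kit had a UMI in 23% of DPCP and 5.81% of control members, against 0.784% and 0% of C1q macrophages. Mast cells also express Kit. Their 5 other markers held 1 UMI in all in the members of each condition, with Cma1, Tpsb2 and Ms4a2 at 0 in both. With at least 80% own tag the Kit ratio was 2.69.

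Activation and checkpoint receptors did not move as a block: of 14 measured, 4 were at least 2-fold higher and 3 at least 2-fold lower in DPCP members. Havcr2, which encodes the inhibitory receptor TIM-3, stood at 97.4 CPM in DPCP and 15.4 CPM in control members (6.32, 4.16 to 9.94), with a ratio of 1.93 on 9 and 8 UMIs among members with both V segments. Tigit, another inhibitory receptor, was at 40.0 and 9.71 CPM (4.12, 2.36 to 7.57). Il2ra, the high-affinity chain of the interleukin-2 receptor, was at 119 and 39.4 CPM (3.03, 2.27 to 4.07), and Cd28, a costimulatory receptor, at 61.1 and 16.6 CPM (3.69, 2.39 to 5.84). On the other side, Lag3, a receptor for MHC class II, was at 24 CPM in DPCP and 65.1 CPM in control members (0.37, 0.24 to 0.55). Cd200r1, an inhibitory receptor, was at 28.4 and 105 CPM (0.27, 0.19 to 0.39), and the other control cells held it at 255 CPM. Cd226, an adhesion and activating receptor, stood at 73.4 and 182 CPM (0.40), a ratio that was 0.625 without the myeloid-rich cells. Inhibitory receptors were thus found on both sides, with Havcr2 and Tigit high and Lag3 low in DPCP members.

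Early genes of receptor signalling were mixed. Of 15 measured, 3 were higher by 2-fold and none lower. Cd69, an early activation and retention marker, stood at 105 CPM in DPCP and 42.8 CPM in control members (2.44, 1.84 to 3.28). Rgs1, a regulator of chemokine receptor signalling, was at 680 and 234 CPM (2.91, 2.59 to 3.28), and at ratios of 1.79 with at least 80% own tag and 1.27 with both V segments. The nuclear receptor gene Nr4a1, which receptor signals induce, was at 40.7 and 59.4 CPM (0.69, 0.49 to 0.96), and Nr4a2 at 27.6 and 52.0 CPM (0.53, 0.35 to 0.78). Ier3, a stress response gene, was at 74.9 and 13.7 CPM (5.46, 3.48 to 8.91), but the other DPCP cells held it at 566 CPM. Genes that receptor signals induce were thus not all higher.

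Of 10 cytotoxic granule and death ligand genes, 1 was higher and 1 lower by 2-fold, and 2 and 3 without the myeloid-rich cells. Prf1, which encodes perforin, stood at 280 CPM in DPCP and 384 CPM in control members (0.73, 0.64 to 0.83). Nkg7, a granule membrane protein of cytotoxic lymphocytes, was at 422 and 668 CPM (0.63, 0.57 to 0.70), and at 422 and 899 CPM (0.47) without the myeloid-rich cells. Serpinb9, the inhibitor that protects killer cells from granzyme B, was at 86.5 and 32.0 CPM (2.71, 1.95 to 3.79), and at a ratio of 4.34 without those cells. Gzmc, a granzyme, was at 24 and 159 CPM (0.151, 0.102 to 0.217), but a single control cell held 74.8% of its control UMIs. Over all members perforin and Nkg7 were thus lower in DPCP skin with many cells behind them, and granzyme C rested on 1 cell. Among the 19 DPCP and 31 control members with both V segments, Nkg7 was nearly level, at 639 and 647 CPM (0.987).

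Chemokine genes were few and split: of 5 measured, 2 were higher and 2 lower by 2-fold and 3 were past 1.5-fold higher, with a median log2 ratio of 0.85, and 1 higher and 2 lower by 2-fold with a median of 0.70 without the myeloid-rich cells. Xcl1, which attracts cross-presenting dendritic cells that carry XCR1, was at 163 CPM in DPCP and 492 CPM in control members (0.331, 0.285 to 0.384), and at 188 and 702 CPM (0.27) without the myeloid-rich cells. After thinning it had a UMI in 23% of DPCP and 56.1% of control members, against 0.392% and 0.164% of C1q macrophages. Ccl5 was at 18.9 and 56.0 CPM (0.34, 0.21 to 0.52), in 8 DPCP and 7 control members, where 1 cell held 92.9% of the control UMIs. Ccl3 and Ccl4, inflammatory chemokines, had ratios of 2.27 and 2.55, with Ccl4 at 1.63 without the myeloid-rich cells, and the other DPCP cells held them at 815 and 1669 CPM against 48.0 and 66.9 CPM in the DPCP members. Of 25 T cell cytokine and growth factor genes only 4 reached 50 UMIs, and none of these passed 2-fold. Tnfsf8, the ligand of CD30, was at 151 and 223 CPM (0.67, 0.57 to 0.80).

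Cytokine receptors leaned higher, with 5 of 20 at least 2-fold higher and 1 lower, at a median log2 ratio of 0.31, which was 0.09 without the myeloid-rich cells. Il4ra, a chain of the interleukin-4 and interleukin-13 receptors, stood at 119 CPM in DPCP and 43.4 CPM in control members (2.73, 2.07 to 3.63). Il17ra was at 157 and 61.1 CPM (2.57, 2.03 to 3.27). Il7r was at 96.7 and 25.1 CPM (3.85, 2.72 to 5.54), in 20 and 15 members. Il1rl1, the receptor of interleukin-33, was at 11.6 and 48.5 CPM (0.24, 0.13 to 0.41), with 122 CPM in the other control cells. Il2rb, the shared chain for interleukin-2 and interleukin-15, was at 532 and 460 CPM (1.16, 1.04 to 1.28). Of 6 chemokine and migration receptors 2 were higher by 2-fold (median 0.38), and 1 of 4 without the myeloid-rich cells (median -0.59).

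Among 17 transcription factors of T cell lineages, 2 were higher by 2-fold and none lower. Rora, a factor of innate lymphoid and type 17 cells, stood at 85.8 CPM in DPCP and 17.1 CPM in control members (5.01, 3.33 to 7.75). Bach2, a repressor that restrains effector differentiation, was at 542 and 219 CPM (2.48, 2.19 to 2.81), and at ratios of 1.83 with at least 80% own tag and 1.66 with both V segments. Runx3, which maintains Itgae in T cells, was at 743 and 568 CPM (1.31, 1.2 to 1.43), and Tox at 1385 and 1428 CPM (0.97). Over the same members the ratio of Itgae was 0.72, and a link between Runx3 and Itgae was not tested. Of 10 cell cycle genes 1 was lower by 2-fold: Stmn1, which encodes the microtubule regulator stathmin, was at 12.4 and 45.1 CPM (0.274, 0.152 to 0.467), and 1 cell of each condition held 41.2% and 40.5% of its UMIs.

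Genes induced by interferon-gamma were mostly higher in DPCP members. Of 19 in the interferon-gamma and MHC class I list 6 were at least 2-fold higher and none lower, 12 were past 1.5-fold, and the median log2 ratio was 0.89, against 4.12%, 12.7% and 0.08 over all genes. Without the myeloid-rich cells 8 of 17 were at least 2-fold higher and the median was 0.88. Gbp2, a guanylate-binding protein of cell-autonomous defence, stood at 186 CPM in DPCP and 34.3 CPM in control members (5.43, 4.09 to 7.32). Igtp and Irgm1, immunity-related GTPases, were at 76.4 and 26.8 CPM (2.84, 2.00 to 4.10) and at 116 and 48.5 CPM (2.38, 1.82 to 3.14), the second at a ratio of 3.71 without the myeloid-rich cells. Nlrc5, the transactivator of MHC class I genes, was at 140 and 62.3 CPM (2.25, 1.77 to 2.88). Class I genes of the list were not all alike. H2-K1 was at 1092 and 1066 CPM (1.02, 0.96 to 1.10) and B2m at 1599 and 1540 CPM (1.04, 0.98 to 1.10). H2-D1 and H2-T23 had ratios of 1.18 and 1.15, but H2-Q7 was at 1.96, and Tap1 of the same list at 1.54. Cd274, which encodes PD-L1, was at 136 and 44.0 CPM (3.09, 2.36 to 4.09), with 273 CPM in the other DPCP cells. After thinning, Gbp2 had a UMI in 20.9% of DPCP and 6.45% of control members, against 9.80% and 10.7% of C1q macrophages, and with at least 80% own tag its ratio was 3.50.

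The promoters of 3 of these genes are shown because their levels differed together. Each runs from 250 bases before to 50 bases after the gene's start, 5′ to 3′ on the gene's strand, from RefSeq for build GRCm38.p6. Capitals mark matches, on either strand, to the core of an interferon-stimulated response element, searched as GAAA, any 2 bases and GAAA, and to TTCNNNGAA, the letters of a gamma-activated site. The 2 matches in Igtp lie side by side without overlap, and the 2 response elements in Irgm1 overlap.
Gbp2 (chr3:142620413-142620712, plus strand): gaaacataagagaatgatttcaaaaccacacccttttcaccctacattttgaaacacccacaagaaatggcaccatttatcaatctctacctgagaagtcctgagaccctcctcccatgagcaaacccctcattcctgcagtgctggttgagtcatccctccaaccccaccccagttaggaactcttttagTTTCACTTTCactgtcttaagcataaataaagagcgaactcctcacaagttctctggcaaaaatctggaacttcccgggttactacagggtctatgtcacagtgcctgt
Igtp (chr11:58199306-58199605, plus strand): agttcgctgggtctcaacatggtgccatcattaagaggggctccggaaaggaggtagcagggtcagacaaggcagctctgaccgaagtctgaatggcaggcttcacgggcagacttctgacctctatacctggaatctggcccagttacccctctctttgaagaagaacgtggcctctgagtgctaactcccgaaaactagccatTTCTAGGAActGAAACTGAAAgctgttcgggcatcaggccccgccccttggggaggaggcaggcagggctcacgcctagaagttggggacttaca
Irgm1 (chr11:48871371-48871670, minus strand): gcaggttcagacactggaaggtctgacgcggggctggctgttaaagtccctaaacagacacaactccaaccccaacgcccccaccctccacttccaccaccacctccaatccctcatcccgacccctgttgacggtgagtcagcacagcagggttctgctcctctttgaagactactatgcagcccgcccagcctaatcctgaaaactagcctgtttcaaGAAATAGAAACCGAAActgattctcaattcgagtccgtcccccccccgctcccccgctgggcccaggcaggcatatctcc
Of the 19 list genes 15 had a RefSeq promoter, and 7 of these held the response element, namely Gbp2, Gbp3, Gbp7, Igtp, Irgm1, B2m and H2-T23. Over 32544 promoters of the same length 3.45% held it. The gamma-activated site was held by 4 of the 15, Gbp7, Igtp, Irf1 and Psmb8, and by 8.33% of all promoters. B2m and H2-T23 hold the element at ratios of 1.04 and 1.15, and Cd274 at 3.09 holds neither. A match of letters is a description and not a bound site.

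The type I interferon list read differently with and without the myeloid-rich cells. With them, 2 of 14 genes were higher and 1 lower by 2-fold (median log2 ratio 0.20). Without them, 5 of 9 were higher and none lower (median 1.03). Ifi27l2a, an interferon-induced gene, was at 270 CPM in DPCP and 896 CPM in control members (0.30, 0.27 to 0.34) with those cells, and at 130 and 124 CPM (1.05) without them, and the other control cells held it at 1872 CPM. Its low ratio was thus not seen among members outside the myeloid-rich cells.

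Genes of energy metabolism and ribosomes differed little, and part of the lipid genes were lower in DPCP members. Oxidative phosphorylation genes had a median log2 ratio of -0.11 (0 of 20 past 2-fold), cytosolic ribosomal protein genes -0.04 (0 of 18) and glycolysis genes -0.14 (0 of 14). Of 16 lipid uptake and metabolism genes 5 were lower by 2-fold and 8 by 1.5-fold (median -0.55). Without the myeloid-rich cells 1 of 11 was lower by 2-fold and 5 by 1.5-fold (median -0.46), against 9.94% of all genes. Lpl, lipoprotein lipase, was at 109 CPM in DPCP and 977 CPM in control members (0.112, 0.0938 to 0.132), and at 87.3 and 152 CPM (0.57) without those cells. Of 9 steroid response genes 2 were higher by 2-fold and 6 past 1.5-fold, with a median log2 ratio of 0.76. Tsc22d3, the glucocorticoid-induced leucine zipper gene, was at 286 and 130 CPM (2.19, 1.86 to 2.60), while Dusp1, also induced by glucocorticoids, was at 146 and 188 CPM (0.78). Of 19 NF-kappaB genes 2 were higher and 1 lower by 2-fold (median 0.39, and 0.59 without the myeloid-rich cells). Bcl3, an atypical inhibitor family member, was at 66.9 and 19.4 CPM (3.45, 2.30 to 5.27), and at a ratio of 7.27 without the myeloid-rich cells.

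**Figure D2:**
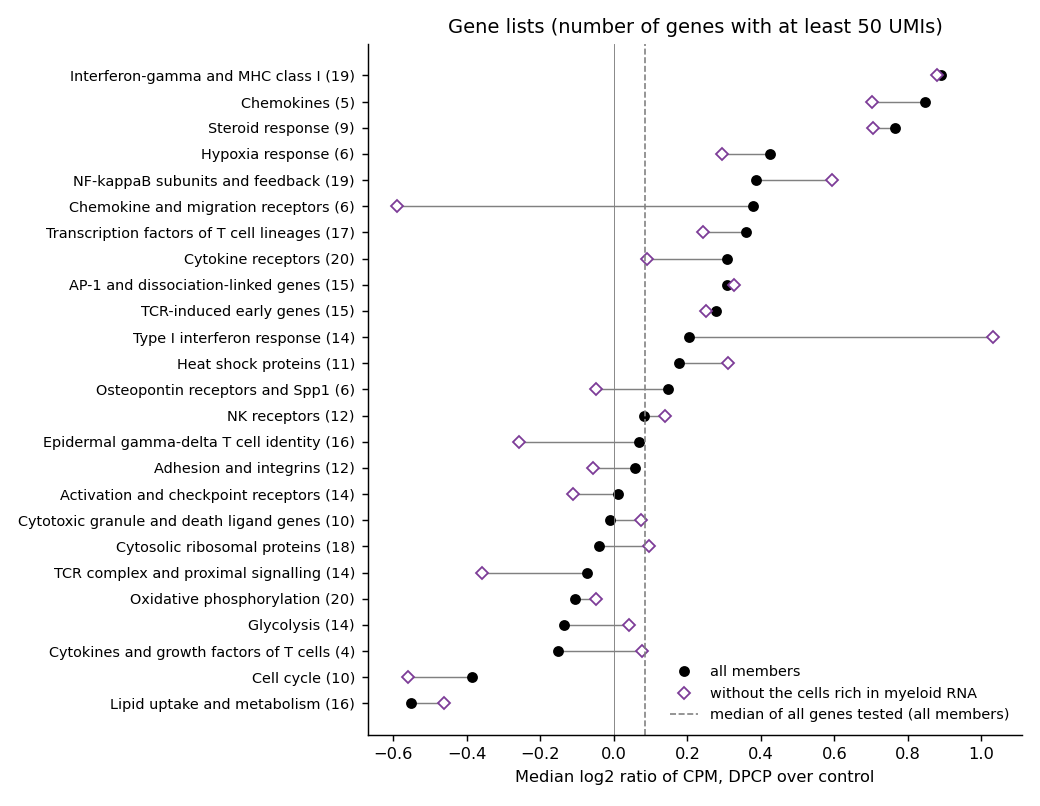
Median log2 ratio of CPM, DPCP over control, for each gene list with at least 4 measured genes (number in brackets), for all members (filled circles) and without the myeloid-rich cells (open diamonds); the dashed line is the median over all 7921 genes, 0.08. The interferon-gamma and MHC class I list stands furthest right among all members at 0.89 and is at 0.88 without the myeloid-rich cells. The type I interferon list is at 0.20 over 14 genes with those cells and at 1.03 over 9 genes without them.

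Of the genes furthest apart, those that the members held at least as highly as the other kept cells are given first. Gm12840, a long non-coding RNA gene (mm10 chromosome 4, 117700188 to 117700923, plus strand), had 1047 UMIs in 61 DPCP members and 41 UMIs in 22 control members, or 761 and 23.4 CPM (32.5, 23.8 to 45.6). After thinning it had a UMI in 39.6% of DPCP and 5.16% of control members, against 1.57% and 0.987% of C1q macrophages. The other kept cells held it at 122 CPM in DPCP and 16.9 CPM in control. Gm20186, a long non-coding RNA gene (chromosome 6, 18845910 to 18848207, minus strand), was at 461 and 56.5 CPM (8.15, 6.59 to 10.2), in 103 DPCP and 62 control members. Frmd5, a FERM domain gene (chromosome 2, 121545529 to 121807087, minus strand), was at 394 and 30.3 CPM (13.0, 9.81 to 17.6), in 42 DPCP and 9 control members. Among the 19 DPCP and 31 control members with both V segments its direction turned, to 28.3 CPM in DPCP and 42.4 CPM in control, on 7 and 18 UMIs. Gm12840 had a ratio of 33.5 in those cells, on 78 and 4 UMIs.

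The other genes on the DPCP side had lower counts. Acsbg1, an acyl-CoA synthetase for long-chain fatty acids, was at 53.8 CPM in DPCP and 3.43 CPM in control members (15.7, 6.88 to 44.2), and at a ratio of 9.26 without the myeloid-rich cells. Pmepa1, a TGF-beta target that dampens Smad signalling, was at 88.0 and 6.28 CPM (14, 7.56 to 28.8), and at 44.7-fold without those cells. A single cell held 72.7% of its 11 control UMIs. Nt5e, which encodes the ecto-enzyme CD73 that makes adenosine, was at 73.4 and 6.28 CPM (11.7, 6.26 to 24.2). Srxn1, a sulfiredoxin of oxidant defence, was at 40.0 and 4.0 CPM (10.0, 4.54 to 26.0). Sdc4, the heparan sulfate proteoglycan syndecan-4, was at 81.4 and 9.71 CPM (8.39), and at 4.86-fold without the myeloid-rich cells. In the other kept cells of DPCP and control, Nt5e was at 43.9 and 3.57 CPM, and Srxn1 at 31.9 and 8.36 CPM. Sdc4 was at 69.6 and 16.4 CPM in them, so the differences of these 3 genes were not those of the members alone. Csgalnact1, an enzyme of chondroitin sulfate synthesis, was at 40.7 and 5.14 CPM (7.92), but reversed under both a requirement for both V segments and a limit of at least 80% own tag. Zfp948, Gm8251 and Adarb1, an RNA-editing deaminase gene, had ratios of 10.1, 22.5 and 7.22, with Gm8251 at 41.7 on 48 and 1 UMIs without the myeloid-rich cells. Igha, the IgA constant region, had 56 UMIs in 30 DPCP and 9 UMIs in 9 control members (7.92, 3.89 to 18.2), while Ms4a1 and Igkc of the B cell list were at 0 in DPCP members. Ccl8 had 112 UMIs in DPCP and 0 in control members, at least 47.5-fold higher against a floor of 3 counts over the group, but 1 myeloid-rich cell held 99.1% of them and it was at 0 without such cells. Of the genes that other cells held more highly, Vcan, Tnfrsf23, Clec4n and Mmp8 led, at 18.1-fold, 12.7-fold, 10.9-fold and 8.73-fold; Vcan was at 3.47-fold without the myeloid-rich cells and Mmp8 was then at 0 UMIs in DPCP and 3 UMIs in control members.

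Genes on the control side included 2 of the 15 that set the members apart. Chl1, a neural adhesion molecule of the L1 family and 1 of the 15 genes of the members (chromosome 6, 103510586 to 103750211, plus strand), was at 77.8 CPM in DPCP and 236 CPM in control members (0.329, 0.264 to 0.408), in 35 and 94 cells. C030029H02Rik, a long non-coding RNA gene that led the 15, was at 8.0 and 43.4 CPM (0.184, 0.0883 to 0.349). Lhfpl3, a tetraspan gene, was at 26.9 and 164 CPM (0.164, 0.113 to 0.231), in 11 and 38 cells. Hdac9, a class IIa histone deacetylase, was at 167 and 740 CPM (0.225, 0.195 to 0.259), and at 186 and 678 CPM (0.27) without the myeloid-rich cells. The other cells held Hdac9 at 113 CPM in DPCP and 714 CPM in control, so its difference was not that of the members alone. Wnt10b, a Wnt ligand, was at 10.9 and 30.8 CPM (0.354, 0.185 to 0.636), in 15 DPCP and 43 control members. Rad51b, Klf8, Aga, Mex3b, Cyp2j6 and Trim65 had ratios of 0.255 to 0.359 on 39 to 92 control UMIs. Aga was at 0.13 without the myeloid-rich cells. The DPCP barcodes set aside for S100a8 and S100a9 held Chl1 at 207 CPM, Lhfpl3 at 136 CPM and C030029H02Rik at 28.7 CPM. Mex3b and Cyp2j6 were at 22.5 and 25 CPM in them, against 22.8 and 26.8 CPM in control members. Hdac9, Wnt10b, Rad51b, Klf8, Aga and Trim65 stayed further below control there, at 290, 15, 21.2, 27.5, 11.2 and 7.49 CPM. With no S100 limit Chl1, Mex3b and Cyp2j6 were lower by less than 2-fold. Of genes that other cells held more highly, Kcnip4, Upb1, Qpct and Lpl were lowest, at 0.0509, 0.0661, 0.103 and 0.112. Without the myeloid-rich cells the first 3 had 2, 13 and 14 UMIs left in control members.

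**Figure D3:**
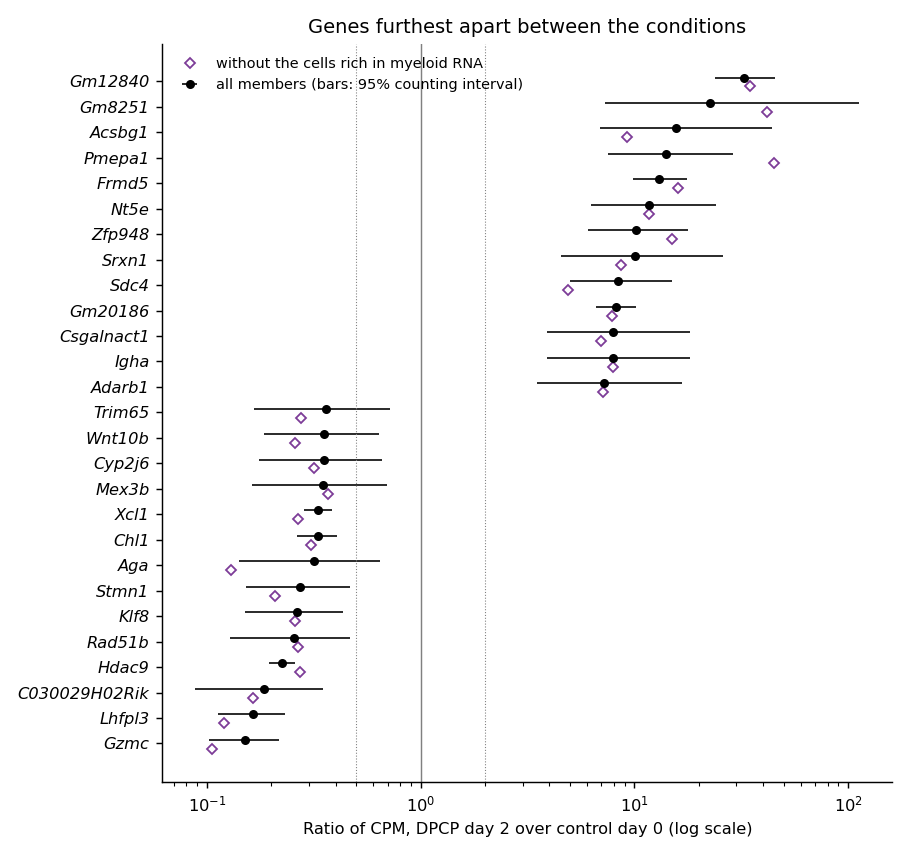
Ratio of CPM, DPCP day 2 over control day 0 (log scale), for the genes furthest apart that the members held at least as highly as other cells; Ccl8 is left out because its ratio is a bound. Filled circles with bars give all members and the 95% counting interval, open diamonds the ratio without the myeloid-rich cells, and dotted lines mark 2-fold; Gm12840 leads at 32.5 and Gzmc is lowest at 0.151.

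The members spanned a wide range of Cd3 level, a measure the rule used, so the range is a description. Summed over Cd3e, Cd3d and Cd3g, the cells ran from 65.6 CPM through a median of 2281 to 15457 CPM in DPCP skin, and from 276 through 4826 to 10601 CPM in control skin. Each condition was divided into tertiles of this level, as parts of a range and not as types: 16 of 140 DPCP members lay within 20% of the lower boundary and 26 within 20% of the upper. In DPCP skin the tertiles did not differ much in depth, with medians of 8370, 8095 and 7614 UMIs from low to high, and 9, 8 and 5 of their cells were myeloid-rich. The lowest held all 11 DPCP members with only 2 or 3 Cd3 UMIs. In control skin the lowest tertile was deep (17410 UMIs) and myeloid-rich in 34 of 52 cells, so the control tertiles are given for scale only.

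Levels of genes over the DPCP tertiles are likewise a description, since the rule used the Cd3 genes that set the tertiles. Over the outer DPCP tertiles 3940 genes had at least 50 UMIs. Of these, 5.81% were at least 2-fold higher in the lowest and 5.58% at least 2-fold lower. Whether a split by another measure would give similar shares was not tested. Some of the most extreme are given here, beside genes picked otherwise. Gm12840 stood at 1201, 917 and 49.5 CPM from the lowest to the highest DPCP tertile, and at 24.4, 18.8 and 27.9 CPM in the control tertiles. Frmd5 was at 652, 431 and 42.1 CPM in DPCP and at 42.9, 30.1 and 0 CPM in control. Both were thus low in the highest DPCP tertile, and the middle tertile held them too. Gamma-delta T cells with no V-segment UMI from DPCP skin also held them, at 809 and 608 CPM. Ust, a uronyl sulfotransferase gene picked after its values were seen, followed the same course with 1984, 1096 and 351 CPM in DPCP and 268, 198 and 195 CPM in control. Also picked so were Bach2, with 923, 441 and 210 CPM in DPCP and 222, 194 and 249 CPM in control, and the signalling adaptor gene Gab2, with 1232, 751 and 285 CPM in DPCP and 348, 301 and 190 CPM in control. Irf8, a factor of the interferon regulatory family, was at 185 CPM in the lowest and 14.8 CPM in the highest DPCP tertile (12.5, 5.50 to 34.8). It had UMIs in 12 and 4 cells, and 1 cell held 47.9% of its UMIs over all DPCP members. St6galnac3 and Wdfy4 were each 11.3-fold higher in the lowest than in the highest DPCP tertile, in 4 and 12 of the 46 lowest cells. Fam219a, Med12l and Irs2 were 8.12-fold, 7.14-fold and 7.03-fold higher there.

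The genes lowest in the lowest DPCP tertile, named because they were the extremes, included Tcrg-C4, Olfm3, Tspan9, Nkg7, Itgae, Ctsw, Tcrg-C1 and Xcl1. Tcrg-C4, a gamma-chain constant region, was the furthest apart, at a ratio of 0.01 between the lowest and the highest DPCP tertile. It had 1 UMI in 1 of 46 cells of the lowest and 84 UMIs in 35 of 47 cells of the highest. Tspan9 had a ratio of 0.07. Itgae stood at 64.4, 361 and 789 CPM from the lowest to the highest DPCP tertile, and at 315, 646 and 888 CPM in control. Nkg7 was at 60.3, 417 and 859 CPM in DPCP and 351, 768 and 1284 CPM in control, and Xcl1 at 35.3, 178 and 297 CPM in DPCP and 248, 651 and 840 CPM in control. Olfm3, an olfactomedin gene among the 15 of the members, was at 66.5, 527 and 1069 CPM in DPCP and 639, 1177 and 1413 CPM in control. Ctsw, a lymphocyte cathepsin, was at 51.9 CPM in the lowest and 579 CPM in the highest DPCP tertile, and Tcrg-C1 at 85.2 and 918 CPM. Of the lowest DPCP tertile 43 of 46 cells held at least 3 of the 15 genes that set the members apart, against 47 of 47 in the highest, at medians of 6 and 9 genes. The summed level of the 15 was lower there, at 3032, 5239 and 6959 CPM from the lowest to the highest DPCP tertile. Trdv4 had a UMI in 45 of the 46 cells and Trac in 8, against 46 and 7 of the 47 cells of the highest. Tcrg-V5 had a UMI in 3, 8 and 11 cells from the lowest to the highest DPCP tertile, so members with both V segments came mostly from the upper part of the range.

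**Figure D4:**
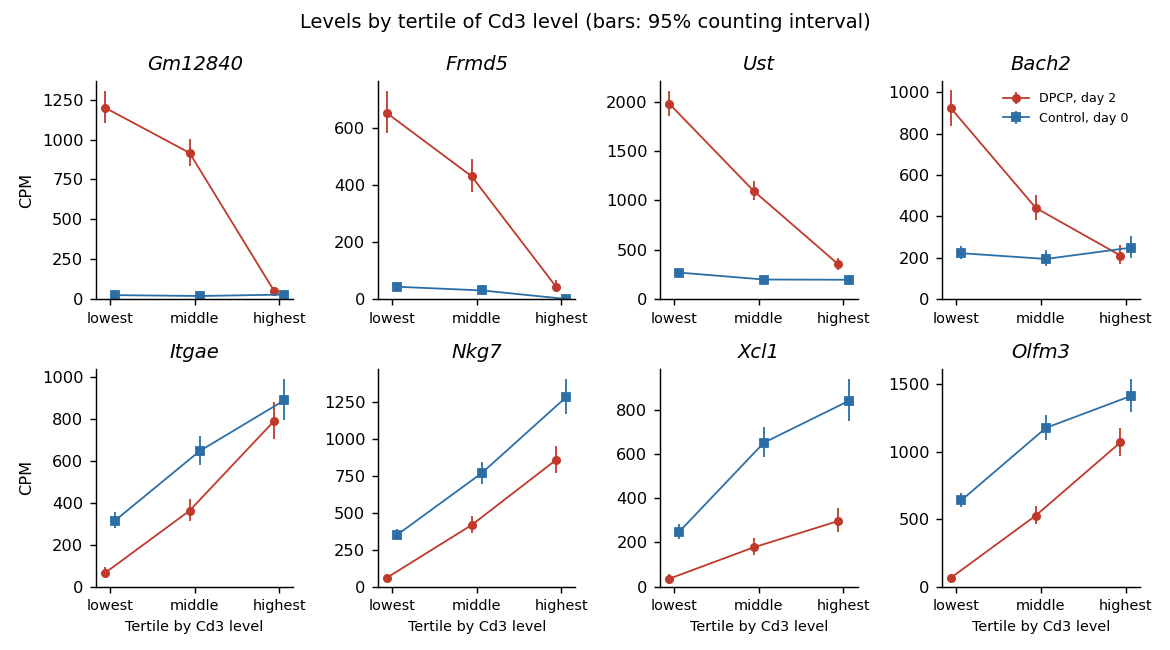
Level (CPM) of 8 genes in the lowest, middle and highest tertile of members by summed Cd3 level, in DPCP (circles) and control (squares), with 95% counting intervals. Gm12840, Frmd5, Ust and Bach2 are high in the lowest DPCP tertile, where Itgae, Nkg7, Xcl1 and Olfm3 are low, for example 1201 CPM of Gm12840 beside 64.4 CPM of Itgae.

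Some DPCP cells held these genes together. At least 2 UMIs of all of Ust, Gm12840 and Frmd5 were found in 25 of 140 DPCP and 2 of 156 control members, and of exactly 2 of them in 32 and 8. Of the DPCP members, 46 passed for 1 gene and 37 for none. The 65 DPCP barcodes set aside for S100a8 and S100a9 were not used to find these genes. They come from the same tagged sample and were divided by the same Cd3 level, so they are no replicate. In the lowest and highest of their tertiles, 21 cells each, Gm12840 was at 606 and 149 CPM, Frmd5 at 514 and 0 CPM and Itgae at 173 and 503 CPM. Wdfy4 and St6galnac3 ran the other way there, at 33.7 and 64.8 CPM and at 0 and 26.7 CPM, on few UMIs. With at least 80% own tag the ratio of DPCP over control was 31.1 for Gm12840, 3.67 for Frmd5 and 2.76 for Ust, against 32.5, 13.0 and 5.12 among all members.

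**Figure D5:**
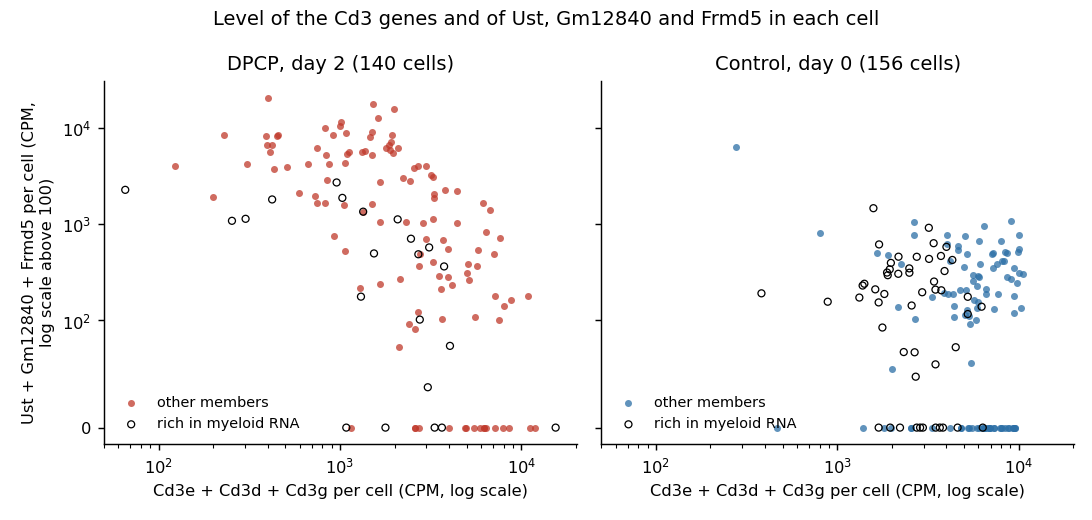
Each point is 1 member. The x axis gives its summed Cd3e, Cd3d and Cd3g level and the y axis its summed Ust, Gm12840 and Frmd5 level, both in CPM on log scales, and open circles are myeloid-rich cells. In DPCP skin cells with low Cd3 lie high, with a median of 1099 CPM on the y axis over all 140 members; in control skin the median is 177 CPM over 156 members and the highest cell reaches 6339 CPM.

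Other genes that were higher in DPCP members were spread over the whole range. Kit stood at 123, 147 and 146 CPM from the lowest to the highest DPCP tertile, and at 38.3, 20.7 and 2.79 CPM in control. Gbp2 was at 222, 123 and 220 CPM in DPCP and 48.7, 22.6 and 16.8 CPM in control. Gbp2 and Kit were therefore high in DPCP cells with much Cd3 as well. Havcr2 went with low Cd3, at 160, 91.9 and 29.7 CPM in DPCP and 12.8, 15.1 and 22.3 CPM in control, as did Rgs1, at 1043, 566 and 386 CPM in DPCP and 222, 239 and 254 CPM in control.

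Alpha-beta T cells of the same pool, 50 from DPCP and 74 from control skin, were set beside the members. They had at least 2 Cd3 and 2 alpha-beta constant-region UMIs and no UMI of the V segments, Trdc or Foxp3. Of 5280 genes measured in them, 3.28% were at least 2-fold higher and 4.72% at least 2-fold lower in DPCP cells, and 10.9% and 10.4% passed 1.5-fold. Of the 14 highest genes of the members 11 had at least 10 UMIs there, and 5 were past 2-fold the same way, namely Gm12840, Gm8251, Frmd5, Zfp948 and Gm20186. Gm12840 stood at 114 CPM in DPCP and 33.5 CPM in control alpha-beta T cells (3.41, 2.19 to 5.46), below its 32.5-fold in the members. Of the 14 lowest, 9 could be measured and Gzmc, Hdac9 and Xcl1 were past 2-fold the same way. Kit was at a ratio of 1.41 and Cd247 at 1.5 in alpha-beta T cells, against 5.38 and 0.67 in the members. The interferon-gamma and MHC class I list had 0 of 18 genes higher by 2-fold and 1 lower there, with a median log2 ratio of -0.10, against 6 of 19 higher and 0.89 in the members. Tnfrsf9, the costimulatory receptor 4-1BB, had a ratio of 17.7 in alpha-beta T cells and 1.21 in the members. With 1 sample per condition the difference between these cell types was not tested.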

How the data were processed

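The deposited values were raw UMI counts of 32285 genes and 12 tags in 14146 barcodes, which the authors gave without normalization. Per the file headers the matrix came from Cell Ranger 7.0.0; per the submitters' processing notes, the tools were Seurat 4.0.1 and Cell Ranger 6.1.1, with mm10. Conditions came from barcode suffixes through the deposited aggregation table, and tag sequences from the deposited tag table. The matrix held 53748585 UMIs in DPCP and 54397154 UMIs in control barcodes. The tag library was not analysed here as a file of its own.

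The members, gene lists, comparisons and alternatives were chosen with earlier results of these data known. UMI counts of a condition's members were summed and scaled to CPM, and exact Poisson limits were taken. Ratios are DPCP over control with exact conditional binomial intervals, and shares have Clopper-Pearson intervals, all at 95%. Where a condition held no UMI, 3 counts over the group served as the floor of its ratio. A gene was measured with at least 50 summed UMIs; a call means a ratio of at least 2 in size. UMIs are not independent between cells, so intervals are too narrow for cell or mouse variation. Of 483 list symbols 4 had no single match. Named genes, besides list examples, had at least 20 CPM in the higher condition and were the 14 highest and 14 lowest ratios at or above the level of other kept cells, the 4 highest and 4 lowest below it, and the 15 genes with the highest ratio of control members to other control cells. No doublet caller was run; cells of high UMIs, of other-lineage UMIs and of myeloid RNA were left out in turn. Thinning drew 2000 UMIs per cell and left out 1 cell per condition. Gene coordinates are those of GENCODE for mm10. Intervals and calls were tested on simulated data. Python 3.11.15, numpy 2.4.6, scipy 1.17.1, pandas and edgeR (for TMM) were used.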

Additional observations from a re-analysis of the deposited data

How the results depend on the processing

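No replicates exist, so no replicate could be left out, and no paired analysis was possible because each condition is 1 tagged sample. Results kept their direction under most alternatives. Each list median was set against a band from the median of its genes' lower counting limits to the median of their upper limits. That band is not an interval of the median itself. Over all alternatives 324 list medians stayed within it, 42 moved out of it and 1 of at least 0.5 in size changed sign. For ratios of named genes, set against their own main interval, these numbers were 406, 119 and 9. TMM scaling shifted every log2 ratio by -0.09. The share of members among kept cells low in S100a8 and S100a9, 5.42% in DPCP and 3.23% in control, was 0.735% and 0.643% with both V segments required, 3.52% and 2.28% with at least 2 V-segment and 2 Trdc UMIs, 7.65% and 4.07% with fewer than 5 S100 UMIs, 4.45% and 2.11% with no Trac UMI, 4.57% and 2.61% without members over 2 times the median UMIs, 3.52% and 1.70% without those with 5 or more other-lineage UMIs, 4.57% and 2.18% without the myeloid-rich cells and 2.22% and 1.85% after thinning; in DPCP it was 2.70% with no S100 limit and 2.32% with at least 80% own tag, and in control 2.59% with no cell filter. The count of genes at least 2-fold higher in DPCP, 326, was 103 with both V segments, 214 with fewer than 5 S100 UMIs, 512 with no S100 limit, 824 and 109 with minimums of 10 and 200 summed UMIs, and 120 after thinning. The count of lower genes, 236, was 104 with both V segments, 138 without other-lineage UMIs, 678 and 83 with those minimums, and 77 after thinning. Lists with a median log2 ratio of at least 0.5 numbered 3, and 5 with no S100 limit, without deep cells or without the myeloid-rich cells, and 6 without other-lineage UMIs. Lists at -0.5 or less numbered 1, and 2 under the stricter filter, with both V segments, without other-lineage UMIs or without the myeloid-rich cells, and 0 with fewer than 5 S100 UMIs, no Trac UMI, at least 80% own tag, the mean over cells or thinning. Named genes past 2-fold the same way in alpha-beta T cells numbered 8, and 5 with fewer than 5 S100 UMIs. Among named genes, and lists whose main median was 0.5 or more in size, log2 ratios that changed sign were those of the chemokine list (-1.88), Frmd5 (-0.58), Csgalnact1 (-1.54) and Stmn1 (0.36) with both V segments; Csgalnact1 with at least 80% own tag (-0.50); Stmn1 with no S100 limit (0.054); Gzmc (0.82) and Mex3b (1.22) with fewer than 5 S100 UMIs; Kcnip4 (1.26) without other-lineage UMIs; and Mmp8 (-0.20) without the myeloid-rich cells. Medians of lists closer to 0 changed sign 69 times over 16 lists, among them chemokine and migration receptors, whose main median of 0.38 was as low as -0.59, and the cell cycle list, whose main median of -0.39 was as high as 0.10. The causes were not tested. Smaller sets of cells leave fewer genes with 50 UMIs by construction, and depth limits what can be said of genes with under 100 UMIs.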

Other observations

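A further 45 DPCP and 53 control cells held Trdc and at least 2 Cd3 UMIs but no UMI of Trdv4, Tcrg-V5 or Trac. At least 3 of the 15 genes that set the members apart had a UMI in 35 of the 45 DPCP and 33 of the 53 control cells. In the DPCP cells Ust stood at 1627 CPM, Gm12840 at 809 CPM and Frmd5 at 608 CPM, and in the control cells at 221, 41.4 and 3.60 CPM.

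Cd163l1, a scavenger receptor gene of type 17 gamma-delta T cells in mouse skin, had 119 UMIs in 16 DPCP members and 27 UMIs in 12 control members, and 1 DPCP cell held 27.7% of the DPCP UMIs. From the lowest to the highest DPCP tertile by Cd3 level, 1, 4 and 11 cells held it.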
